A study of Capra hircus with 6 samples.

Results

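The transcripts of 10 transcription factor genes were followed in dermal papilla cells of the cashmere goat treated with all-trans retinoic acid (ATRA). The genes were TWIST1, TWIST2, SNAI1, SNAI2, ZEB1, ZEB2, PRRX1, TBX18, TRPS1, and PRDM1. They were taken by name from the 15944 genes of the count table. All 10 genes were found, and all 10 were among the 12588 genes that passed edgeR's filter on low counts. The cells were secondary hair follicle dermal papilla cells (SHF-DPCs), a primary culture labelled wild type from Albas cashmere goats (Capra hircus). The ATRA-treated group (3 libraries) received ATRA at 100 µM for 24 h, and the control group (3 libraries) received an equal volume of culture medium for the same time. The dose, the time, and the use of separate animals come from the methods of the study. The labels place all 6 libraries in batch 1 and do not say which animal gave which library, so p-values measure the spread between these libraries.

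SNAI, ZEB, and TWIST proteins are known as drivers of epithelial-mesenchymal transition. SNAI and ZEB proteins are zinc finger repressors that bind E-box sequences of epithelial genes such as CDH1, and TWIST proteins are basic helix-loop-helix (bHLH) factors that bind E-boxes as dimers. PRRX1 is a homeobox factor of embryonic mesenchyme, and TBX18 is a T-box factor known from the precursors of the dermal papilla. TRPS1 is a GATA-type zinc finger repressor whose loss in humans gives sparse hair, and PRDM1 (also called BLIMP1) is a zinc finger repressor found in the developing dermal papilla.

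Total counts ranged from 35532339 to 38012771 per library. Levels are given as normalized CPM, which are read counts brought to a common library total after scaling by edgeR's TMM method, and a log2 fold change (log2FC) is ATRA against control. TMM factors averaged 0.847 over the control libraries and 1.18 over the ATRA libraries. The median log2FC of all tested genes was 0.04 with TMM, 0.11 with upper-quartile scaling, and 0.52 when counts were divided by library size only. ATRA 2 stood apart from the other ATRA libraries: the chi-square per degree of freedom over genes was 17.3 and 18.4 for its pairs, 5.01 for ATRA 1 with ATRA 3, and 6.13 to 8.94 within the control group. Of the dermal papilla markers, 13 of 22 were tested, of which 12 were lower with ATRA, none was higher, and the median log2FC was -2.07. Over all tested genes, 38.7% were lower and 40.9% were higher at an adjusted p under 0.05. ACTA2 (alpha smooth muscle actin), VCAN, SDC1, BMP4, and RSPO3 were abundant in the control group, with mean levels of 6582, 1641, 772, 406, and 275 CPM, and had 8.37, 32.4, 91.1, 15.9, and 73.7 CPM with ATRA. ALPL, CORIN, PROM1, and BMP6 of the same list had at most 1 count in any library. PROM1 is the gene of CD133, a marker that the study reports as positive by immunofluorescence in its purified cells. Why its transcript was nearly absent here was not tested. In bulk RNA, fewer cells of a type and less RNA per cell cannot be told apart.

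PRRX1, TBX18, and SNAI2 fell steeply with ATRA, ZEB1 and ZEB2 fell to a lesser extent, and TRPS1 rose. TWIST1, TWIST2, and SNAI1 did not pass the test, and PRDM1 passed it narrowly. At an adjusted p under 0.05 by edgeR's quasi-likelihood test, 2 of the 10 genes were higher and 5 were lower, where 40.9% of all tested genes were higher and 38.7% were lower. PRDM1 is 1 of the 2 higher genes, and it did not pass without Control 1, Control 2, ATRA 1, or ATRA 2 (adjusted p = 0.200, 0.118, 0.0663, and 0.154), which left 1 higher gene. Under scaling by library size only, 5 of the 10 genes were higher and 5 lower, and over all tested genes 7921 were higher and 2861 lower. With |log2FC| above 1 and an unadjusted p under 0.05, TRPS1 was higher and SNAI2, PRRX1, and TBX18 were lower, and 31.0% of all tested genes passed these thresholds in either direction. The libraries of the groups did not overlap for 7 of the 10 genes (1 higher, 6 lower), and they did not overlap for 80.1% of all tested genes. The median log2FC of the 10 genes was -0.48, and their median absolute log2FC was 0.85, beside 0.59 over all tested genes.

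**Figure D1:**
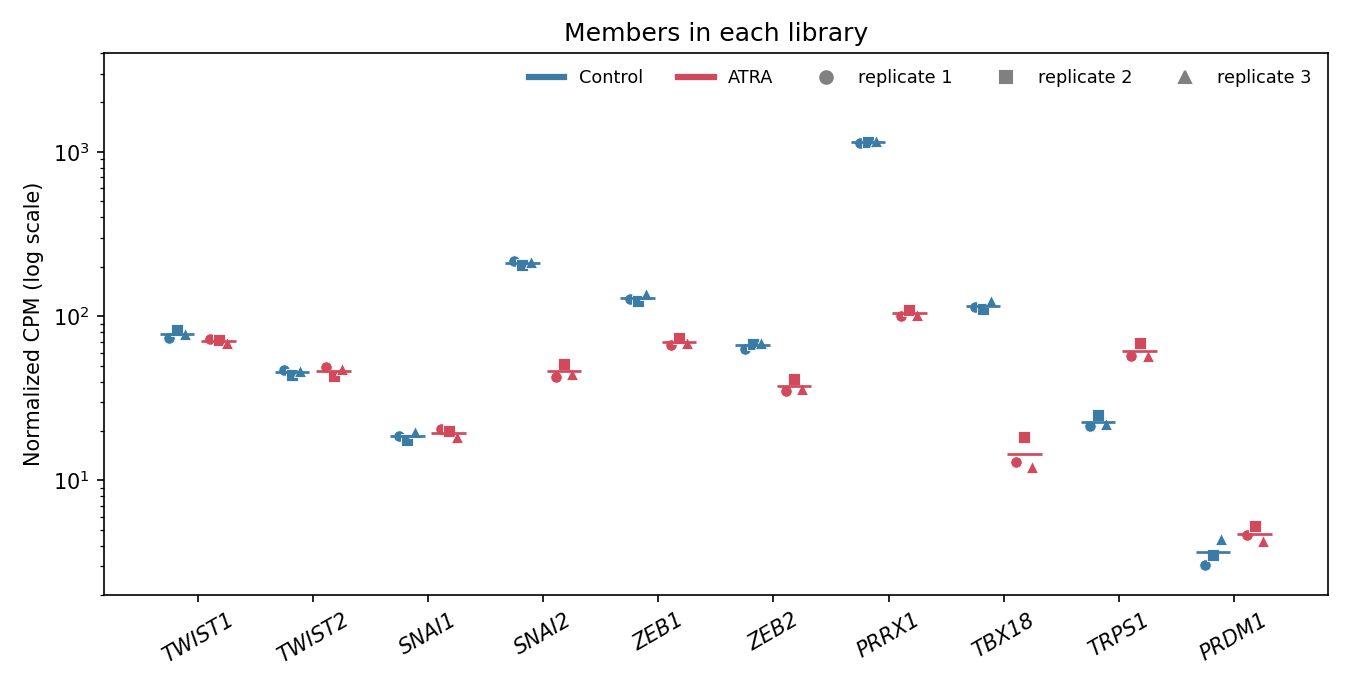
Normalized CPM of each of the 10 genes (vertical axis, log scale) in every Control and ATRA library, with points for libraries and lines for group means. Levels are not corrected for transcript length and are to be compared within a gene. The ATRA libraries of PRRX1, TBX18, SNAI2, ZEB1, and ZEB2 all sit below the control libraries, those of TRPS1 sit above, and the groups overlap for TWIST2, SNAI1, and PRDM1.

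PRRX1 fell more than any other of the 10 genes. Its level was 1139, 1156, and 1167 CPM in Control 1, 2, and 3 (1154 ± 14.2, SD, n = 3). In ATRA 1, 2, and 3 it was 101, 109, and 102 CPM (104 ± 4.43, SD, n = 3). The groups were far apart and varied little within themselves. The log2FC was -3.47 (SE 0.0621, 95% interval -3.60 to -3.34, adjusted p = 4.00e-19), an 11.1-fold lower level with ATRA. Its paralogue PRRX2 also fell, with a log2FC of -1.30 (SE 0.0582).

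TBX18 was measured at 113, 111, and 123 CPM in the control libraries (116 ± 6.54, SD, n = 3). The ATRA libraries held 13.0, 18.4, and 12.0 CPM (14.5 ± 3.45, SD, n = 3). ATRA 2 was the highest of the ATRA libraries and still lay far below every control library. The log2FC was -3.00 (SE 0.119, 95% interval -3.25 to -2.74, adjusted p = 1.08e-12), and it ranged from -3.22 to -2.89 when each library was left out in turn. TBX15, another T-box gene of dermal cells, rose slightly (log2FC 0.36, SE 0.0659).

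SNAI2, which encodes the repressor Slug, had 215, 204, and 214 CPM in Control 1, 2, and 3 (211 ± 6.32, SD, n = 3). With ATRA it had 42.8, 51.1, and 44.5 CPM (46.2 ± 4.41, SD, n = 3). Every ATRA library lay below every control library. The log2FC was -2.19 (SE 0.0685, 95% interval -2.34 to -2.05, adjusted p = 1.14e-15), a 4.57-fold lower level.

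SNAI1, which encodes the repressor Snail, did not pass the test. Its level was 18.7, 17.6, and 19.8 CPM in the control libraries and 20.5, 19.9, and 18.3 CPM in the ATRA libraries. The ranges overlapped. The log2FC was 0.07 (SE 0.0846, 95% interval -0.11 to 0.24, adjusted p = 0.478). With library size only SNAI1 passed as higher, at 0.54 (adjusted p = 1.90e-05), near the median of all genes of 0.52 under that scaling.

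Both ZEB genes fell. ZEB1 had 128, 123, and 137 CPM in the control libraries (129 ± 6.91, SD, n = 3) and 66.9, 73.6, and 68.7 CPM in the ATRA libraries (69.7 ± 3.50, SD, n = 3). Its log2FC was -0.89 (SE 0.0624, 95% interval -1.02 to -0.76, adjusted p = 2.39e-10). The ranges of ZEB1 did not overlap, and neither did those of ZEB2. ZEB2 had 63.5, 67.3, and 68.3 CPM in the control libraries (66.4 ± 2.52, SD, n = 3) and 35.2, 41.4, and 36.3 CPM with ATRA (37.6 ± 3.34, SD, n = 3). Its log2FC was -0.82 (SE 0.0726, 95% interval -0.97 to -0.67, adjusted p = 7.17e-09). The falls were 1.85-fold for ZEB1 and 1.76-fold for ZEB2. With library size only, the log2FC was -0.41 for ZEB1 and -0.34 for ZEB2, and both still passed.

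Neither TWIST gene passed the test. TWIST1 had 73.7, 82.8, and 78.1 CPM in the control libraries (78.2 ± 4.54, SD, n = 3) and 73.0, 71.8, and 68.2 CPM with ATRA (71.0 ± 2.51, SD, n = 3). The groups did not overlap, but the lowest control library and the highest ATRA library nearly met. The log2FC was -0.14 (SE 0.0634, 95% interval -0.27 to -0.01, adjusted p = 0.0523), and TWIST1 passed as lower in 6 of 15 alternative settings, among them the fits without Control 1 (adjusted p = 0.0266) and without ATRA 2 (adjusted p = 0.0225). With library size only it passed as higher, at 0.34 (adjusted p = 0.000156), where the median of all genes was 0.52. TWIST2 had 47.1, 43.8, and 46.6 CPM in the control libraries and 48.7, 43.3, and 47.8 CPM with ATRA. Its ranges overlapped, with a log2FC of 0.02 (SE 0.0698, 95% interval -0.12 to 0.17, adjusted p = 0.760). With library size only TWIST2 too passed as higher, at 0.50 (adjusted p = 3.70e-06).

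TRPS1 was the gene that rose most among the 10. Its level was 21.4, 24.9, and 22.1 CPM in the control libraries (22.8 ± 1.90, SD, n = 3). With ATRA it was 57.5, 68.2, and 57.4 CPM (61.0 ± 6.24, SD, n = 3). Every ATRA library lay above every control library, with ATRA 2 the highest. The log2FC was 1.42 (SE 0.0851, 95% interval 1.24 to 1.60, adjusted p = 2.17e-11), a 2.68-fold higher level, and without each library in turn it ranged from 1.32 to 1.48.

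PRDM1 was covered by few reads, with 95, 114, and 141 counts in the control libraries and 200, 233, and 177 with ATRA. These correspond to 3.06, 3.52, and 4.39 CPM (3.66 ± 0.674, SD, n = 3) and to 4.63, 5.28, and 4.28 CPM (4.73 ± 0.510, SD, n = 3). Control 3 lay above ATRA 3, so the groups overlapped. The log2FC was 0.37 (SE 0.161, 95% interval 0.03 to 0.71, adjusted p = 0.0430), and it passed in 7 of 15 alternative settings.

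**Figure D2:**
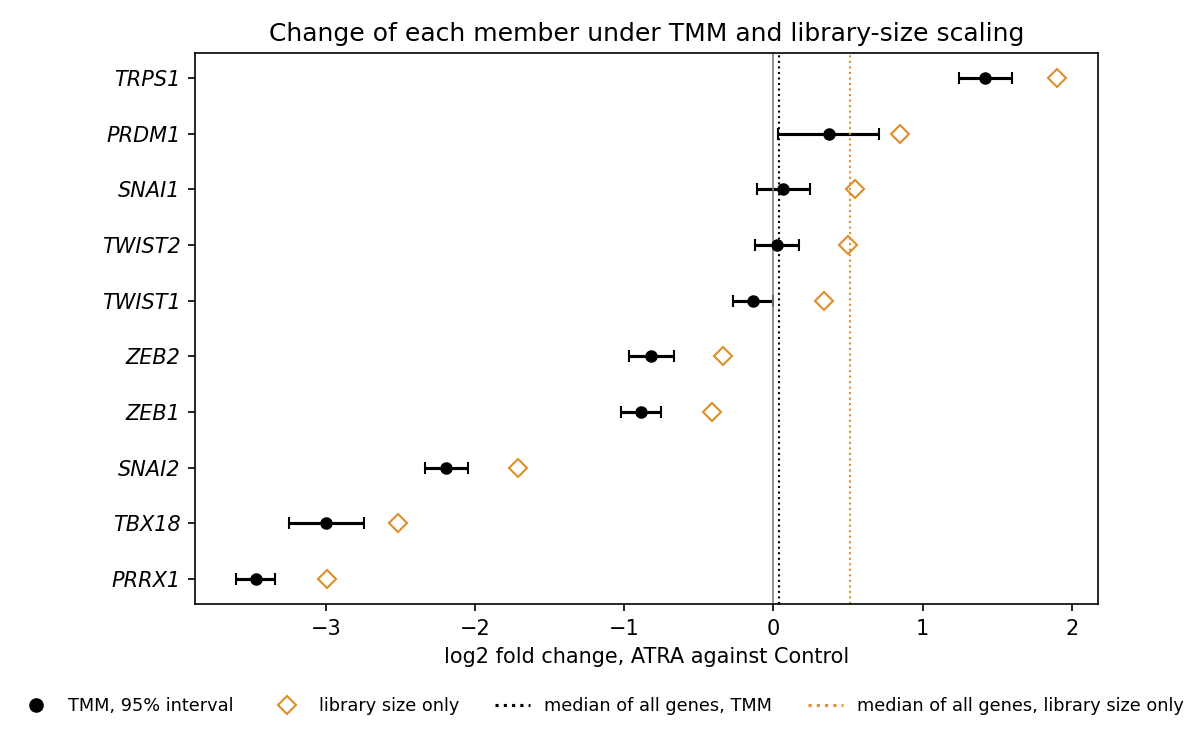
The log2FC of each of the 10 genes (horizontal axis), with filled points and 95% intervals for TMM scaling, open diamonds for library size only, and dotted lines at the median of all tested genes under each scaling. PRRX1, TBX18, SNAI2, ZEB1, and ZEB2 lie below 0 under both scalings, and TWIST1 moves from -0.14 to 0.34.

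ATRA 2 held the highest level among the ATRA libraries for 7 of the 10 genes, and for 38.3% of all tested genes. Its part in these values was not tested beyond the fits without it, in which SNAI2, ZEB1, ZEB2, PRRX1, TBX18, and TRPS1 passed. These 6 genes passed in all 15 alternative settings. The share of all tested genes that did so was not computed, and in the main test 40.9% were higher and 38.7% lower.

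Ratios of paralogues within a library do not depend on scaling between libraries. The SNAI1 to SNAI2 count ratio was 0.0867, 0.0865, and 0.0926 in the control libraries and 0.478, 0.389, and 0.412 with ATRA. The groups did not overlap, and SNAI1 went from 8.14% ± 0.291 to 29.9% ± 2.24 (SD, n = 3) of the pair's counts. SNAI1 itself had a log2FC of 0.07 and did not pass, while SNAI2 fell with a log2FC of -2.19. On the log2 scale the ratio was 2.26 higher with ATRA, or 4.80-fold (exact two-sided permutation test, p = 0.1, adjusted p = 0.3 over 3 ratios). The smallest p that 3 libraries against 3 can give is 0.1.

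The other two ratios differed less between the groups. The TWIST1 to TWIST2 ratio was 1.56, 1.89, and 1.68 in the control libraries and 1.50, 1.66, and 1.43 with ATRA, a log2 difference of -0.16 (exact permutation p = 0.2, adjusted p = 0.3). The ZEB1 to ZEB2 ratio was 2.01, 1.83, and 2.0 in the control libraries and 1.90, 1.78, and 1.89 with ATRA, a log2 difference of -0.07 (exact permutation p = 0.3, adjusted p = 0.3). Both overlapped between the groups. Another pair of ratios was chosen after their values were seen. PRRX1 to PRRX2 went from 4.70, 4.88, and 5.22 to 1.05, 1.21, and 1.04, a log2 difference of -2.17. TBX18 to TBX15 went from 2.53, 2.68, and 2.79 to 0.231, 0.321, and 0.223, a log2 difference of -3.38.

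**Figure D3:**
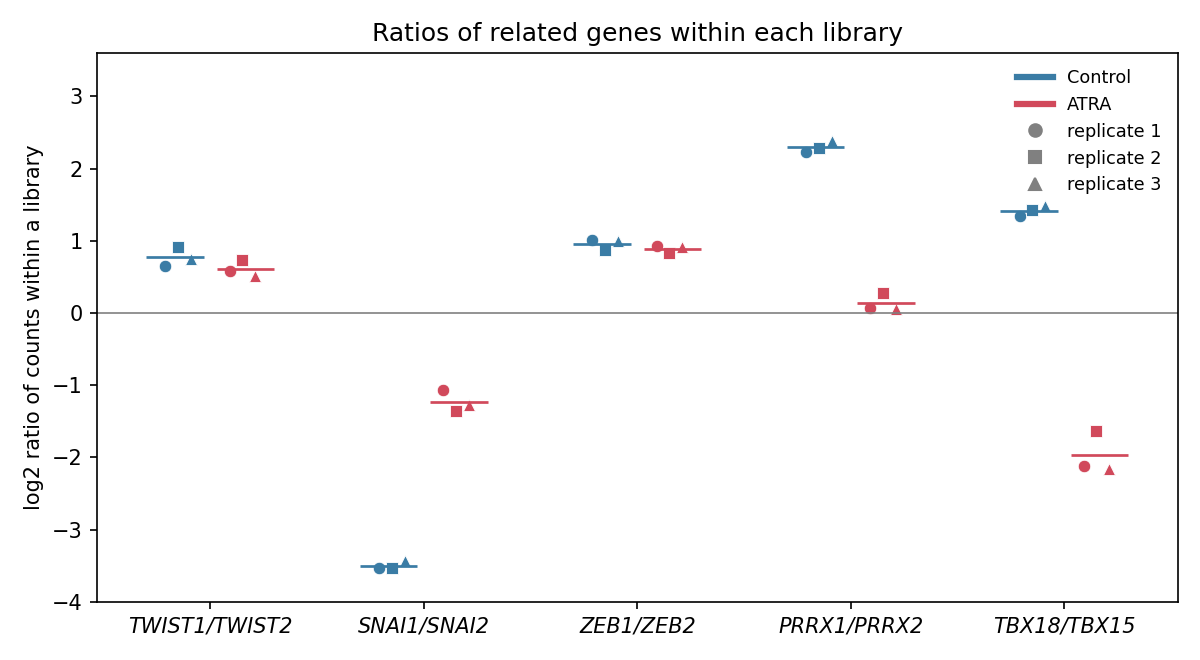
Log2 ratio of the counts of paralogous genes within each library (vertical axis), with a point for each Control and ATRA library and lines at the group means. The SNAI1 to SNAI2 ratio is 2.26 higher with ATRA, whereas the groups overlap for TWIST1 to TWIST2 and for ZEB1 to ZEB2.

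The 10 genes together took 0.153% to 0.160% of the counts of a control library and 0.0535% to 0.0601% of an ATRA library. PRRX1 gave 62.5% ± 0.491 of their reads in the control group and 21.9% ± 0.289 with ATRA (SD, n = 3). The share of TRPS1 went from 1.24% ± 0.108 to 12.8% ± 0.659, and that of TWIST1 from 4.24% ± 0.246 to 15.0% ± 0.750. TWIST1 took a larger share although its own log2FC was -0.14. TRPS1 rose 2.68-fold in level, less than in share, as the total of the 10 genes was smaller with ATRA. These shares follow transcript length as well as level and do not rank the genes by expression.

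**Figure D4:**
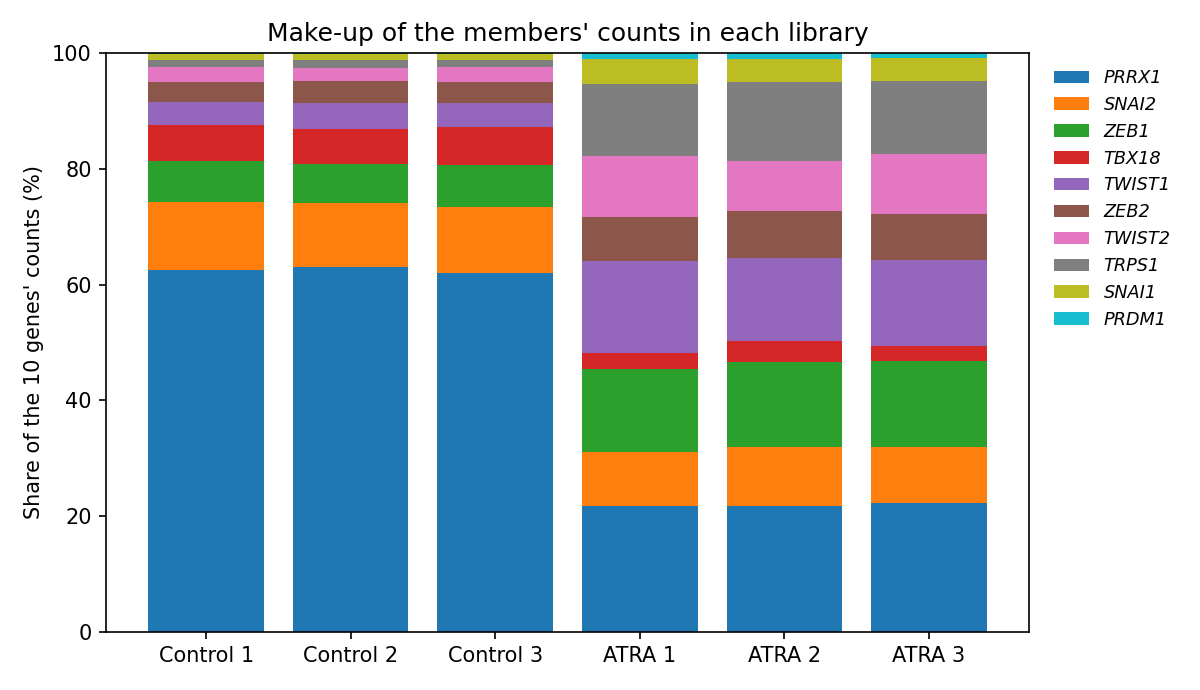
Share of the reads of the 10 genes taken by each gene (percent) in every library. PRRX1 takes 62.5% on average in the control group and 21.9% with ATRA.

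Set among transcription factor genes, the fallen genes lay near the low end. With the 10 genes included, 828 tested genes had the deposited term "DNA-binding transcription factor activity" (or its RNA polymerase II form) or were among the 10. Transcription factors annotated only with other terms are left out of this set. From the lowest log2FC upward, PRRX1 ranked 17, TBX18 ranked 20, SNAI2 ranked 30, ZEB1 ranked 97, and ZEB2 ranked 104. TRPS1 ranked 82 from the highest. Of the other 818 genes of the set, 430 were higher and 217 were lower, with a median log2FC of 0.27.

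Other transcription factors of mesenchyme were read against the shares of all tested genes, 40.9% higher and 38.7% lower, as were the lists that follow. Of 39 listed genes, 32 were tested, 10 were higher, 17 were lower, and 5 did not pass, with a median log2FC of -0.43, and with library size only 14 were higher and 14 lower. FOXC2, a forkhead factor of mesenchyme, rose from 0.711 ± 0.0329 to 31.5 ± 2.50 CPM (SD, n = 3; log2FC 5.46). FOXF1 and FOXC1, also forkhead factors, rose with log2FC of 2.71 and 1.97. SIX2 had 6 counts over the control libraries and 453 over the ATRA libraries. After TMM scaling the ratio was 56.0, with a 95% counting interval of 25.5 to 153.

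The lower genes of this group included MEOX2, a homeobox factor that fell from 16.0 ± 0.587 to 1.08 ± 0.0681 CPM (SD, n = 3; log2FC -3.89). HIC1, a zinc finger repressor of dermal fibroblasts, CREB3L1, an activator of collagen genes, and OSR1, a zinc finger factor of connective tissue, had log2FC of -2.71, -2.25, and -2.04. Among genes named TBX with a number, 6 were tested, of which 4 were higher and 2, TBX18 and TBX20, were lower, TBX20 narrowly (adjusted p = 0.0409) and not without Control 2, Control 3, or ATRA 3 (adjusted p = 0.0940, 0.18, and 0.177). Among those named PRDM with a number, 9 were tested, 7 were higher (PRDM1 among them), 1 was lower, and 1 did not pass. These families were looked up after the values were seen, and nothing is read from their counts beside the 40.9% higher and 38.7% lower of all tested genes.

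Of 8 genes of bHLH partners and inhibitors of TWIST proteins, 7 were tested, 6 were higher, and 1 was lower, with a median log2FC of 1.42, beside 40.9% higher and 38.7% lower of all tested genes. HAND1 was not matched in the table. ID proteins bind E proteins and keep them from DNA. ID3 had 18.2 ± 0.228 CPM in the control group and 146 ± 7.56 with ATRA (SD, n = 3; log2FC 3.00), and ID2, ID4, and ID1 rose with log2FC of 2.09, 1.64, and 1.42. The E protein genes moved in both directions. TCF4 fell from 128 ± 5.27 to 32.9 ± 2.68 CPM (SD, n = 3; log2FC -1.96), while TCF3 rose with a log2FC of 0.38 (adjusted p = 2.33e-05). TCF12 passed narrowly, with overlapping groups and a log2FC of 0.17 (adjusted p = 0.0403). It did not pass without Control 1, Control 2, ATRA 2, or ATRA 3 (adjusted p = 0.230, 0.0698, 0.235, and 0.0645), which left 5 higher genes.

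Corepressors that act with SNAI and ZEB proteins had shares of calls near those of all tested genes (40.9% higher, 38.7% lower). Of 20 genes tested, 9 were higher, 9 were lower, and 2 did not pass, with a median log2FC of 0.04, and with library size only 13 were higher and 7 lower. The histone H3 lysine methyltransferase genes SUV39H1 and EHMT2 fell with log2FC of -3.26 and -1.45, and the LIM proteins LIMD1 and AJUBA with -1.05 and -0.96. The rises were smaller, with log2FC of 0.74 for NCOR1, 0.48 for CTBP2, 0.40 for RCOR1, and 0.35 for the demethylase gene KDM1A.

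Genes that control the stability of the SNAI1 protein had 8 higher, 6 lower, and 1 not passed of 15 and a median log2FC of 0.13, where 40.9% of all tested genes were higher and 38.7% lower, and with library size only 12 were higher and 1 was lower. The ubiquitin ligase genes FBXO45, FBXL5, and BTRC rose with log2FC of 1.02, 0.67, and 0.66, and the deubiquitinase gene USP37 with 0.89. PAK1, a kinase that phosphorylates SNAI1, fell from 49.8 ± 2.71 to 6.06 ± 0.580 CPM (SD, n = 3; log2FC -3.04). OTUB1, GSK3B, and LOXL2 had log2FC of -0.43, -0.40, and -0.32 with TMM, and with library size only these turned to 0.05, 0.07, and 0.16. Protein levels were not measured in these libraries.

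Most epithelial genes that SNAI, ZEB, and TWIST repress were barely detected. Of 30 listed genes, 8 were tested, 4 were higher, 3 were lower, and 1 did not pass, with a median log2FC of 0.04. With no filter on low counts 7 were higher, and with library size only 1 was lower. CDH1, the gene of E-cadherin, had 2, 1, and 2 counts with ATRA and 0 in each control library. The claudin gene CLDN4 had 3, 7, and 5 counts in the control libraries and 884, 774, and 809 with ATRA (log2FC 6.90). CLDN3, with 244, 222, and 202 counts with ATRA and 0 in each control library, was at least 53.7-fold higher against a floor of 3 counts per library.

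MARVELD2, a tight junction gene, and GRHL1, an epithelial transcription factor, rose with log2FC of 2.01 and 0.89, while ESRP2, a splicing regulator of epithelia, PATJ, a polarity gene, and CDH3, the gene of P-cadherin, fell with -0.96, -0.82, and -0.80, of which PATJ and CDH3 did not pass with library size only. With t.test GRHL1 and CDH3 did not pass (adjusted p = 0.0567 and 0.0508). Of 12 keratinocyte markers, 1, KRT10, was tested and was higher (adjusted p = 0.000328, and 0.0761 with t.test), and their summed level was 3.24 to 5.01 CPM in the control libraries and 5.51 to 6.20 CPM with ATRA. KRT10 gave most of this sum, at 2.55, 4.27, and 2.71 CPM in the control libraries and 5.83, 5.24, and 5.80 CPM with ATRA. KRT14 went the other way, with 20, 14, and 10 counts in the control libraries and 3, 0, and 0 with ATRA, as did KRT5, with 2, 7, and 3 counts and then 0 in each ATRA library. The keratinocyte list also holds CDH1. The part of other cell types in these values was not tested.

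Mesenchymal genes of the epithelial-mesenchymal transition were lower in 24 of 24 cases with a median log2FC of -2.98, and 22 were lower with library size only. TNC, which encodes tenascin C, fell from 13631 ± 384 to 32.4 ± 0.319 CPM (SD, n = 3; log2FC -8.72). POSTN, the gene of periostin, TAGLN, of transgelin, and THY1, a surface marker of fibroblasts, had log2FC of -7.83, -6.32, and -6.07. The fibroblast markers were lower in 10 of 10 cases, but COL1A1, COL1A2, COL3A1, PDGFRA, PDGFRB, THY1, and VIM are in both lists. Only LUM, DCN, and DPT were added by the markers. Both lists were chosen with earlier results of these data known, and 38.7% of all tested genes were lower. These genes fell in the same libraries in which PRRX1, TBX18, and SNAI2 were low, and a link between them was not tested.

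Genes linked to PRDM1 and TRPS1 were looked at last. Of 15 genes, 10 were tested, 6 were higher, 2 were lower, and 2 did not pass, with a median log2FC of 0.52. The counts were 9 higher and 1 lower with library size only. They were 4 higher and 2 lower with a filter of at least 1 CPM in 3 libraries. RUNX2 and GLI3, factors of skeletal and limb development, both had a log2FC of 0.56, and BCL6 and MYC, which PRDM1 represses in B cells, had 0.48 each. WIF1, the gene of a secreted WNT inhibitor, fell from 98, 82, and 94 counts to 6, 6, and 7 (log2FC -4.25). XBP1, a factor of the secretory pathway, had a log2FC of -0.31 with TMM and 0.17 with library size only.

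**Figure D5:**
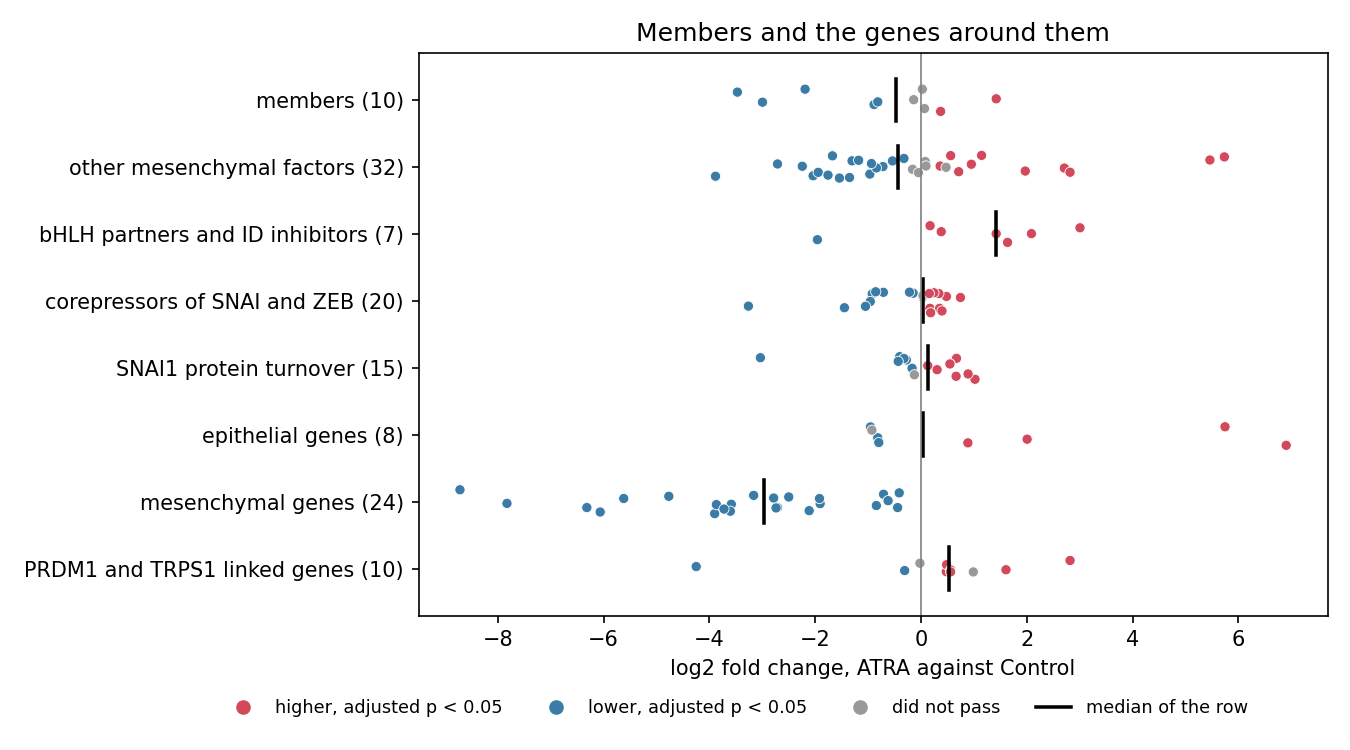
The log2FC (horizontal axis) of the 10 genes and of the tested genes of the 7 lists, coloured by the test, with a bar at the median of each row. CLDN3 and BACH2, which had 0 counts in the control group, are drawn at their lower bounds. All 24 mesenchymal genes lie below 0, and the corepressors of SNAI and ZEB lie on both sides.

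The genes nearest in profile to PRRX1 and TRPS1 were found by the Euclidean distance of log2(CPM + 1), centred on the control mean, over the 6 libraries. For PRRX1 they were ENO3, LAMA4, and MYH9 (distances 0.110, 0.128, and 0.129), and among genes of the transcription factor set ZBTB7C, TCF19, and EGR2. For TRPS1 they were COL4A3BP, SOX4, and DLX2 (distances 0.0888, 0.0920, and 0.0988), and among genes of that set FOXC1, MITF, and HMX3. SOX4 and DLX2 are transcription factors as well but do not carry the term that defines the set. The added count compresses genes of low level, so a near profile is not a like fold change. The log2FC was 4.02 for DLX2, against 1.42 for TRPS1, and it was -5.14 for ZBTB7C, -5.33 for TCF19, and -5.11 for EGR2, against -3.47 for PRRX1.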

How the data were processed

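RNA-seq was made from 3 control and 3 ATRA-treated cultures. By the methods of the study, the authors captured poly(A) RNA and cleaned the reads with fastp and TrimGalore. The authors deposited raw read counts per gene, not normalized. HISAT2, featureCounts, and DESeq2 are named in the submitters' processing notes, and the genome build, annotation, and strand setting are not given in the sources used here. Every sample column was used, and no coordinates were printed.

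After filterByExpr and TMM scaling, groups were compared by the quasi-likelihood F test of edgeR (robust, two-sided, prior count 0.125, Benjamini-Hochberg adjustment over 12588 genes, R 4.3.3, edgeR 4.0.16, limma 3.58.1). As raw counts need a count model, the t.test of the study's methods served as an alternative. The SE is the absolute log2FC over the square root of F. Ratios of paralogues used counts plus 0.5. Scripts were tested on simulated data. Intervals and floors (3 counts) cover counting error only where they are so named.

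The members and lists were chosen with earlier results of these data known. From each of the 7 lists, the genes named are up to 4 in each direction with the largest log2FC, an adjusted p under 0.05, a mean CPM of at least 1, and no overlap between the groups. CDH1, PRRX2, TBX15, TBX20, TCF3, TCF12, BACH2, and the single cell type markers were named outside that rule, after their values were seen. Endothelial, leukocyte, melanocyte, and pericyte markers were also examined: 2, 2, 1, and 0 of the tested 5, 2, 2, and 5 were higher, and 1, 0, 1, and 4 were lower. Of all tested genes, 40.9% were higher and 38.7% lower. The endothelial marker PECAM1 was at least 63.1-fold higher against the floor of 3 counts, whereas ERG of the same list had a log2FC of -3.21. The leukocyte markers CD14 and CD68 had log2FC of 2.18 and 1.41, and the pericyte marker CSPG4 had -4.73. Alternatives were DESeq2 (1.42.0), t.test, other scalings, filters and thresholds, a replicate block, and leaving out single libraries.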

Additional observations from a re-analysis of the deposited data

How the results depend on the processing

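Against 2 members higher, 1 was higher with DESeq2, t.test on log2(CPM + 1), RLE scaling, and the replicate block, 1 with |log2FC| above 1 and an unadjusted p under 0.05, and 5 with library size only. Without each library in turn, 1 to 2 were higher. By the thresholds of |log2FC| and unadjusted p, 3 members were lower (5 at the adjusted p). Of all 12588 tested genes, 1730 were higher and 2174 lower by these thresholds. The 7 lists hold 149 genes, of which 114 were tested. Of these 114, 15 were higher and 36 lower by these thresholds, against 41 and 62 at the adjusted p. With library size only, 56 were higher and 47 lower, which turned the majority round. PRDM1 had an adjusted p of 0.0777 with DESeq2, 0.136 with t.test, 0.0550 with RLE scaling, and 0.0548 with the replicate block (range over 15 alternatives 0.000161 to 0.200). TWIST1 turned to 0.34 with library size only. TWIST2 turned to -0.015 without Control 2, -0.015 without ATRA 1, and -0.0027 without ATRA 3, and leaving out each library gave -0.015 to 0.066. OTUB1, GSK3B, LOXL2, and XBP1 turned to 0.047, 0.075, 0.16, and 0.17 with library size only, which moved the share of higher genes among all calls from 51.4% to 73.5%. PATJ and CDH3 had adjusted p of 0.159 and 0.0835 there, and with t.test GRHL1 and CDH3 had 0.0567 and 0.0508. With library size only, 1 gene each of the SNAI1 turnover, epithelial, and PRDM1 and TRPS1 linked lists was lower, against 6, 3, and 2. TCF12 had adjusted p of 0.0819 with DESeq2, 0.223 with t.test, 0.0693 with RLE scaling, and 0.0543 with TMM without the 100 most abundant genes. TBX20 had 0.162 with t.test, 0.0777 with upper-quartile scaling, 0.853 with library size only, and 0.0590 with the replicate block, and KRT10 had 0.0761 with t.test. With no filter, 7 epithelial genes were higher, against 4. The cause of these shifts was not tested.

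The deviations of same-numbered libraries from their group means had r = 0.144, 0.00699, and -0.124 over 11548 genes. Libraries of different numbers had r from -0.199 to 0.188. With 3 libraries per group, these values cannot tell whether the numbers are pairs. The main fit was unpaired because the labels do not say which animal gave which library. With the replicate block, 5123 genes were higher and 4869 lower over all genes, against 5151 and 4877. PRDM1 has the fewest counts of the 10 genes, and 3 libraries per group limit every comparison.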
